A study of Mus musculus with 18 samples.

Results

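The 10 genes described here, Nfat5, Nqo1, Nob1, Cyb5b, Pdpr, Exosc6, Terf2, Nip7, Cog8 and Aars, lie on mouse chromosome 8 on either side of Wwp2, and were chosen by position, as a check for effects of the Wwp2 deletion or of linked sequence on nearby genes. They are 10 of the 51435 genes in the tables, and 9 of them passed the count filter (more than 1 count over all mice), which 24804 genes passed. WWP2 Mut/Mut mice, on a C57BL/6J background, are homozygous for a 4-bp deletion in Wwp2 coding exon 2 made with CRISPR/Cas9, and WT mice are their littermates. All mice of both genotypes carried a pump that delivered AngII (angiotensin II) at 500 ng/kg/min for 28 days from 8 weeks of age, so the libraries hold no saline-treated hearts. Each of the 18 mice (9 per genotype) gave 1 library of poly(A) RNA from its left ventricle. The deletion shifts the reading frame of the full-length and N-terminal isoforms only, and isoforms that start further downstream are left, so the mouse models the loss of some Wwp2 products rather than of the gene.

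WWP2 is a HECT-type E3 ubiquitin ligase, an enzyme that attaches ubiquitin to target proteins. In cardiac (myo)fibroblasts the study reports monoubiquitination of SMAD2 and saw no breakdown of SMAD2 by WWP2. A homozygous line made in embryos keeps the edited chromosome segment together with whatever alleles lie beside it, and transcription of one gene can also touch promoters next to it, so the neighbours of an edited gene are a common control. The neighbours of Wwp2 are mostly genes that every cell uses: NFAT5 is the transcription factor of the response to osmotic stress, NQO1 is a quinone reductase controlled by NRF2, and NOB1 and NIP7 help to mature ribosomal subunits.

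The deletion lies in the exon shown here, the edit that separates the genotypes. It is coding exon 2 of the longest Wwp2 reading frame in the annotation (chr8:107457443-107457590, GRCm38, + strand, 148 bases), and the capitals mark its single BsaAI recognition site, the restriction site by which the study followed the deletion.

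Wwp2 coding exon 2: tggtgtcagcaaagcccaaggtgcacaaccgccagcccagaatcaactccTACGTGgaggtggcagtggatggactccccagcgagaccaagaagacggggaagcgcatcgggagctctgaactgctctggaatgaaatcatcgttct

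In GRCm38 coordinates, Wwp2 (ENSMUSG00000031930) spans 107436365 to 107558595 on the + strand. A block of 7 members lies before its start: Cog8 (107046289 to 107056689), Nip7 (107056877 to 107060931), Terf2 (107069400 to 107096547), Cyb5b (107150640 to 107187471), Nfat5 (107293470 to 107379517), Nqo1 (107388225 to 107403206) and Nob1 (107412486 to 107425051). Nob1 is the nearest, with a gap of 11.3 kb, and Nqo1 and Nfat5 follow at 33.2 and 56.8 kb. Cog8 is the farthest of the block, at 379.7 kb. The other members lie 3.5 Mb past the end of Wwp2: Aars (111033144 to 111057664), Exosc6 (111056339 to 111057664) and Pdpr (111094630 to 111137074). They are on the same chromosome arm but are not immediate neighbours.

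Cog8 and Nip7 are transcribed away from each other from a shared stretch of 187 bases (chr8:107056690-107056876, GRCm38.p6, + strand). It is shown because the listed counts of the 2 genes moved differently across the libraries. RefSeq promoter windows around the gene starts were matched for all 10 members. The capitals mark the single match to CCGGAA, searched on both strands, which 14.9% of the 32851 windows hold. Among the members, the windows of Nfat5 and Pdpr hold a match too, beside those of Cog8 and Nip7. An excess among the members was not tested.

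Between Cog8 and Nip7: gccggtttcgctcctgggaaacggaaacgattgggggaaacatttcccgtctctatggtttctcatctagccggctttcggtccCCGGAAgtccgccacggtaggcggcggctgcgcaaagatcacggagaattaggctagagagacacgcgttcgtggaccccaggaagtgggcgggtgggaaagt

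The libraries held 24566994 to 37451087 expected counts. Gene levels are given as TPM (transcript abundance scaled for gene length and library total), and differences between genotypes come from edgeR on the counts with RNA concentration and lane as covariates. On the TPM scale most genes sat lower in WWP2 Mut/Mut: of 11336 genes with a mean of at least 1 TPM, 92.0% had a lower mean there, with a median log2 ratio of the means of -0.14, and this shift remained at -0.11 once TPM was rescaled to the same sum in every mouse. In the edgeR comparison, which is normalized by TMM, the median log2 fold change of all genes was -0.01. Differences in TPM are therefore read against that shift below. The summed TPM of 6 cardiomyocyte markers was 19663 to 25591 in WT and 18076 to 22084 in WWP2 Mut/Mut (two-sided exact permutation test, p = 0.0407), a difference on the same shifted scale, and 0 of the 6 had an unadjusted p under 0.05 in edgeR. The other 8 marker lists gave exact permutation p values from 0.0566 (liver) to 0.74 (endothelial cells). In whole ventricle, fewer cells of a type and less RNA per cell cannot be told apart. The deposited fraction of gene body coverage ran from 0.0288 to 0.0540 and did not separate the genotypes, with 0.0387 ± 0.0086 (SD, n = 9) in WT and 0.0401 ± 0.0082 (SD, n = 9) in WWP2 Mut/Mut (two-sided exact permutation test, p = 0.720).

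The edited gene was examined first. Wwp2 in WT hearts was lowest at 3.83 TPM, with a median of 5.10 and a highest value of 6.01. In WWP2 Mut/Mut hearts the lowest was 1.19, the median 1.58 and the highest 3.00 TPM. Every WWP2 Mut/Mut mouse was below every WT mouse. Wwp2 fell by 1.40 on the log2 scale (SE 0.157, 95% interval -1.73 to -1.07, edgeR adjusted p = 0.00113), and the two-sided exact permutation test of TPM gave p = 4.11e-05, the smallest that 9 against 9 mice allow. The remaining 1.72 ± 0.53 TPM in WWP2 Mut/Mut (SD, n = 9) counts all isoforms together, since the tables do not separate them.

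Of the 9 flanking genes tested, 0 passed an adjusted p of 0.05 in edgeR, in DESeq2 or in limma on log2(TPM + 1), and 0 had an unadjusted p under 0.05 by any of these tools. Over all 24804 genes, 0.00403% passed the adjusted threshold in edgeR, which is Wwp2 alone, and 3.66% had an unadjusted p under 0.05. The log2 fold changes of the members ran from -0.27 for Pdpr to 0.10 for Cog8, with a median of -0.05, and 6 of 9 were negative, beside 51.9% of all genes. A negative sign in 6 of 9 genes is near the background and is not a result about the members. The count was 8 with library totals alone in place of TMM, where 65.4% of all genes were negative, and 9 in limma on log2(TPM + 1), where 73.7% were. In mean TPM all 9 tested members were lower in WWP2 Mut/Mut, as were the 92.0% of genes given above.

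**Figure D1:**
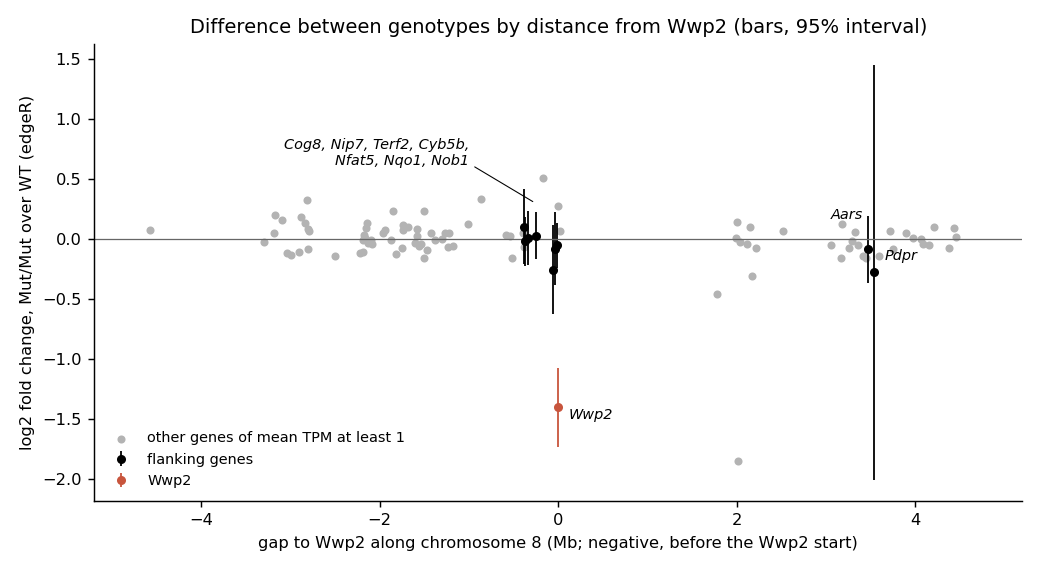
Log2 fold change (WWP2 Mut/Mut over WT, edgeR) of genes within 5 Mb of Wwp2 against their gap to it in Mb. Black points are the 9 tested flanking genes and the red point is Wwp2, with 95% intervals, and grey points are other genes with a mean of at least 1 TPM. Wwp2 sits at -1.40, every interval of a flanking gene includes 0, and that of Pdpr is the widest.

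Nob1, the closest gene before the Wwp2 start, encodes the endonuclease that makes the last cut in the small ribosomal subunit RNA. Its TPM in WT was 7.43 at the lowest, 11.3 at the median and 14.98 at the highest. In WWP2 Mut/Mut it was 8.37 at the lowest, 9.43 at the median and 10.2 at the highest. The groups overlapped, with all 9 WWP2 Mut/Mut mice under the WT median and 0 of them under the lowest WT mouse. The means were 11.5 ± 2.29 (SD, n = 9) and 9.40 ± 0.70 TPM (SD, n = 9), and the two-sided exact permutation test of TPM gave p = 0.0182. Of the genes with a mean of at least 1 TPM, 5.41% passed that test at an unadjusted 0.05 with a lower level in WWP2 Mut/Mut. Over all tested genes the adjusted p of Nob1 in this test was 0.91. Wwp2 had the same adjusted p of 0.91 at the smallest p that the test allows. The adjusted value therefore cannot tell Nob1 from a gene that changed. The log2 ratio of the mean TPM of Nob1 was -0.29, or -0.15 relative to the median of all genes. The test missed 0.05 once TPM was rescaled (p = 0.0647) or replaced by TMM-normalized log2 CPM (p = 0.0622), both two-sided exact permutation tests. In edgeR the log2 fold change of Nob1 was -0.05 (SE 0.0901, 95% interval -0.24 to 0.14, unadjusted p = 0.581). In this fit the interval allows a level in WWP2 Mut/Mut between 0.847 and 1.10 times that of WT. The log2 fold change of Nob1 was -0.13 with lane alone (edgeR unadjusted p = 0.149) and -0.12 with no covariates (edgeR unadjusted p = 0.121). RNA concentration ran from 1.68 to 163.1 ng/ul in WT and from 89.3 to 320.9 ng/ul in WWP2 Mut/Mut, so this covariate was not balanced between the genotypes.

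Nqo1, which encodes the quinone reductase, was the most abundant member per length. It ran from 18.8 to 38.1 TPM in WT, with a median of 29.3. In WWP2 Mut/Mut it ran from 16.3 to 39.4 TPM, with a median of 25.2. The groups overlapped over nearly their whole range, and the log2 fold change was -0.08 (SE 0.146, unadjusted p = 0.598 in edgeR). Nfat5, which encodes the osmotic stress factor, had the lowest mean of the 9 members with counts, at 1.54 to 2.95 TPM in WT with a median of 1.70. It was at 0.93 to 2.73 TPM in WWP2 Mut/Mut with a median of 1.57. Among the WWP2 Mut/Mut mice, 4 of 9 lay below the lowest WT mouse. Nfat5 had the smallest unadjusted p of the members in edgeR (0.167), with a log2 fold change of -0.25 (SE 0.176, 95% interval -0.62 to 0.12). Without WWP2 Mut/Mut mouse 52-1, its log2 fold change was -0.41 with an unadjusted p of 0.0266 in edgeR and an adjusted p of 1.00. Leaving out other mice brought it as near to 0 as -0.11, both without mouse 53-1 of WWP2 Mut/Mut and without mouse 45-1 of WT. Mouse 52-1 was the highest of its genotype for Wwp2.

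Cyb5b encodes the cytochrome b5 of the outer mitochondrial membrane. It was at 7.29 to 16.4 TPM in WT (median 12.6) and at 8.51 to 14.5 TPM in WWP2 Mut/Mut (median 10.1). Its log2 fold change was 0.03 (SE 0.0922, unadjusted p = 0.728 in edgeR). Terf2 encodes the shelterin protein TRF2, which protects chromosome ends, and was at 2.48 to 6.34 TPM in WT (median 3.84) and 2.94 to 4.36 TPM in WWP2 Mut/Mut (median 3.41). Its log2 fold change was 0.01 (SE 0.109, unadjusted p = 0.924 in edgeR). Both genes differed by less than the spread between mice of one genotype.

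Nip7, a factor of the large ribosomal subunit, was at 3.72 to 12.2 TPM in WT (median 8.33) and 3.29 to 9.11 TPM in WWP2 Mut/Mut (median 6.16). Its log2 fold change was -0.02 (SE 0.0959, unadjusted p = 0.866 in edgeR). Cog8, a subunit of the COG complex that tethers vesicles at the Golgi, was at 7.61 to 9.51 TPM in WT (median 8.69) and 6.12 to 8.69 TPM in WWP2 Mut/Mut (median 8.45). Its log2 fold change was 0.10 (SE 0.149, unadjusted p = 0.49 in edgeR). On the TPM scale Cog8 varied least of the members with counts, its SD of log2(TPM + 0.1) over the 18 mice being larger than that of 2.56% of the 11336 genes with a mean of at least 1 TPM. On TMM-normalized log2 CPM this did not hold: the SD of Cog8 was 0.25 in WT and 0.31 in WWP2 Mut/Mut, against 0.12 and 0.15 for Nob1 (n = 9 each). Cog8 overlaps Pdf, a mitochondrial peptide deformylase gene, whose log2 fold change was -0.07 (unadjusted p = 0.605 in edgeR). The listed counts of both genes include fractions, with 875.44 for Cog8 and 1344.56 for Pdf in WWP2 Mut/Mut mouse 22-3. The Cog8 values may therefore depend on how shared reads were divided between the 2 genes.

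Aars encodes the alanyl-tRNA synthetase and was at 5.16 to 13.4 TPM in WT (median 9.97) and 5.36 to 11.9 TPM in WWP2 Mut/Mut (median 8.09). Its log2 fold change was -0.08 (SE 0.132, unadjusted p = 0.538 in edgeR). Exosc6, a subunit of the RNA exosome, was listed at 0 in all 18 mice and could not be tested. All 1296 windows of 31 bases in its only annotated transcript also occur in Aars transcripts, so reads of the 2 genes cannot be told apart there, and a listed 0 is no evidence that Exosc6 is not expressed. For the same reason the Aars values may include reads from Exosc6.

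**Figure D2:**
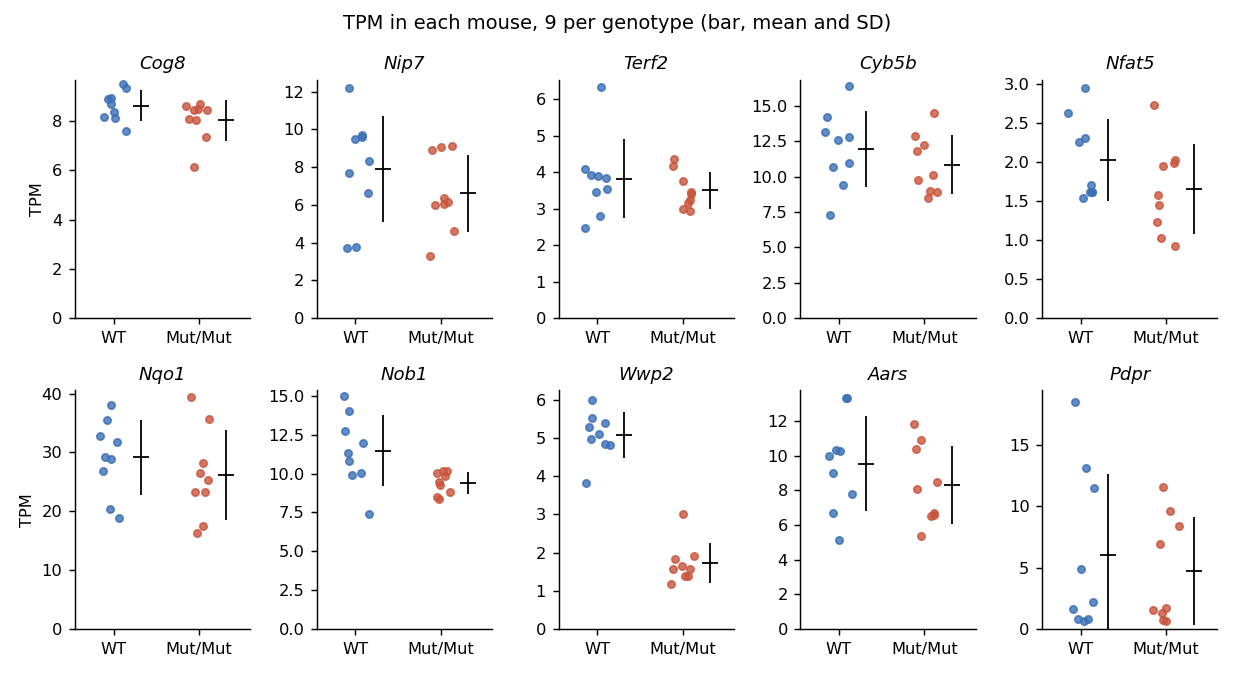
TPM of Wwp2 and of the 9 flanking genes with counts in each mouse (blue, WT; red, WWP2 Mut/Mut; 9 mice each), with black bars for the mean and SD. The genotypes separate for Wwp2, where the highest WWP2 Mut/Mut mouse was at 3.00 TPM and the lowest WT mouse at 3.83, and overlap for the others.

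Pdpr, the regulatory subunit of pyruvate dehydrogenase phosphatase, varied far more between mice than the other members. It ran from 0.62 to 18.5 TPM in WT (median 2.19) and from 0.66 to 11.6 TPM in WWP2 Mut/Mut (median 1.70). Both genotypes held mice near 1 TPM and mice near 10 TPM. The ratio of highest to lowest mouse was 29.9, against 1.55 to 3.71 for the other members with counts, and its SD of log2(TPM + 0.1) exceeded that of 99.1% of the 11336 genes. The log2 fold change between genotypes was -0.27 with an SE of 0.825 (95% interval -2.01 to 1.46, unadjusted p = 0.743 in edgeR), so a change between 0.249 and 2.74 times lies within the interval. The highest Pdpr value was in WT mouse 43-3, whose RNA concentration was listed as 1.68 ng/ul, and without that mouse the log2 fold change was -0.34. It was -0.74 when WWP2 Mut/Mut mouse 22-3 was left out and 0.37 when WT mouse 25-3 was, so single mice set its sign.

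Pdpr moved with the gene body coverage listed for each library, a fraction whose definition is not given in the sources used here. The 8 libraries with the lowest coverage (0.0288 to 0.0341), 4 of each genotype, held 4.90 to 18.5 TPM of Pdpr. The 10 libraries with higher coverage (0.0383 to 0.0540) held 0.62 to 2.19 TPM. Over the 18 mice, log2 CPM of Pdpr and coverage gave Pearson r = -0.93 and Spearman rho = -0.91 (permutation p = 1e-05 for each, the smallest that 100000 permutations can give, and adjusted p = 6.67e-05 over 20 relations). Without the 2 mice farthest from the median coverage r was -0.93, and it was -0.89 within WT and -0.98 within WWP2 Mut/Mut (n = 9 each).

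In an edgeR model with coverage as a term beside genotype, fitted after the data had been seen, 4 of the 9 members passed an adjusted p of 0.05. Over all genes 30.9% passed, and 54% of the genes with a mean of at least 1 TPM, so the members were not set apart by their number. Pdpr was 1.53 lower on the log2 scale per SD of coverage (SE 0.117, adjusted p = 4.46e-08). Aars fell by 0.21 (SE 0.0414, adjusted p = 7.33e-04) and Cyb5b fell by 0.10 (SE 0.0334, adjusted p = 0.0223). The counts listed for Cog8 moved the other way and rose by 0.28 (SE 0.0389, adjusted p = 1.94e-05). The part of reads shared with Pdf in this rise was not tested. Nip7, which shares its promoter stretch with Cog8, did not pass (0.03, SE 0.0432, adjusted p = 0.63).

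The unit mattered for Cog8 and Nip7. Cog8 gave rho = 0.90 with coverage on log2 CPM (permutation p = 1e-05) and 0.24 on log2 TPM (permutation p = 0.34). For Nip7, log2 CPM gave rho = 0.02 with coverage (permutation p = 0.947), while log2 TPM gave rho = -0.83. The gene length implied by the Nip7 ratio of count to TPM ranged over 2.11 times between mice, against 1.23 times for Wwp2 and 1.01 times for Nqo1. That implied length had a rho of 0.81 with coverage over the 18 mice. It did not separate the genotypes, at 1.09 ± 0.33 (SD, n = 9) times its median in WT and 1.09 ± 0.27 (SD, n = 9) in WWP2 Mut/Mut (two-sided exact permutation test, p = 0.984). On TPM the median rho with coverage over the 11336 genes was -0.61, and on log2 CPM it was -0.04. What the coverage value stands for in these libraries was not tested.

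**Figure D3:**
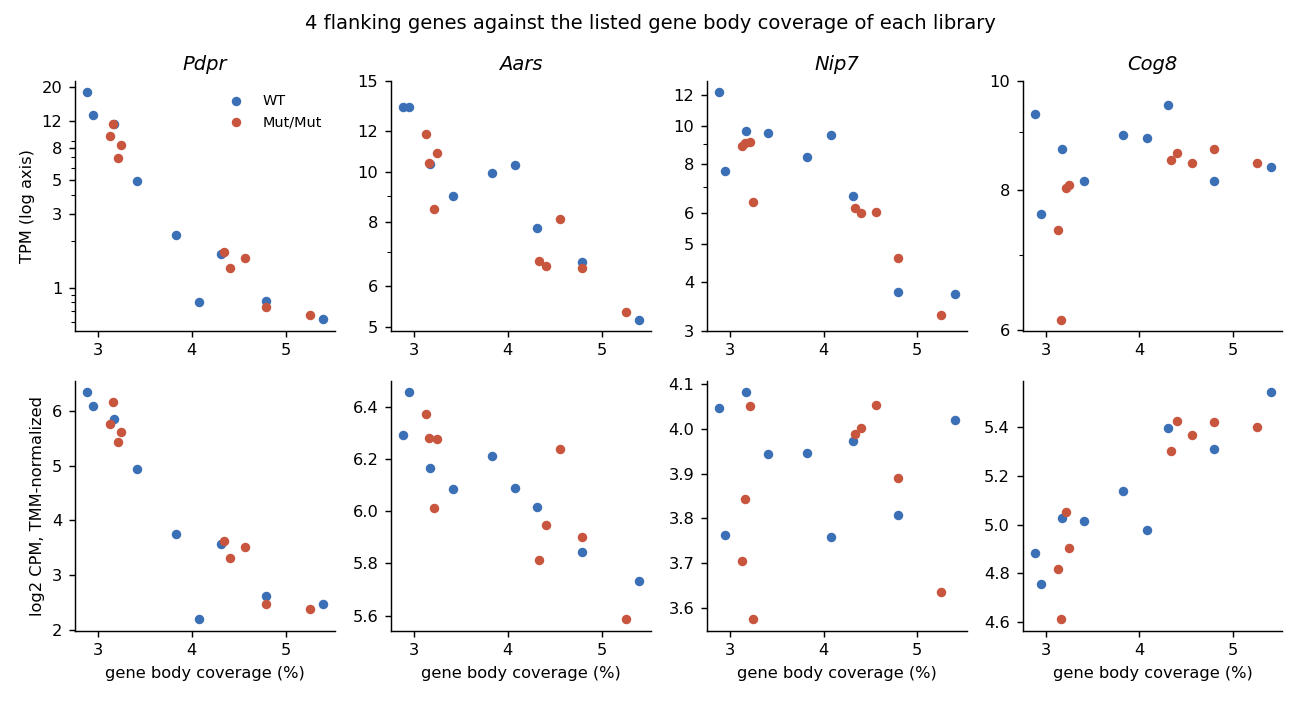
Level of Pdpr, Aars, Nip7 and Cog8 against the gene body coverage of each library in percent (blue, WT; red, WWP2 Mut/Mut), as TPM on a log axis (top) and as TMM-normalized log2 CPM (bottom). Pdpr falls along the coverage axis in both genotypes, from 18.5 to 0.62 TPM in WT and from 11.6 to 0.66 TPM in WWP2 Mut/Mut, Cog8 rises on the CPM scale, and Nip7 slopes on the TPM scale only.

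Lanes held 2 or 3 mice of each genotype. In TPM, 8 of 9 tested members had a higher mean in WWP2 Mut/Mut than in WT in lane 1, where 66.4% of the 11336 genes did. In lanes 2, 3 and 4 the numbers higher were 1, 0 and 2 of 9, where 21.3%, 14.6% and 24.5% of genes did. Mean differences of Nob1 by lane were 0.75, -3.08, -4.65 and -1.54 TPM in lanes 1 to 4, so its direction in lane 1 was the opposite of the others. Mean coverage in lane 1 was 0.0485 in WT and 0.0421 in WWP2 Mut/Mut, while in lanes 2, 3 and 4 it was lower in WT (0.0375, 0.0303 and 0.0386) than in WWP2 Mut/Mut (0.0405, 0.0381 and 0.0396). The part of coverage in the lane directions was not tested. Wwp2 was lower in WWP2 Mut/Mut in all 4 lanes, with differences of -2.13, -3.94, -3.89 and -3.44 TPM.

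The other genes around Wwp2 were examined in the same fit. Psmd7, a subunit of the proteasome cap, is the first gene past the end of Wwp2, at 21.8 kb, and stood at 49.9 ± 7.79 TPM in WT and 48.2 ± 8.06 TPM in WWP2 Mut/Mut (SD, n = 9 each; log2 fold change 0.07, edgeR unadjusted p = 0.499). The rest of the protein-coding genes within 0.5 Mb that passed the filter were Sntb2, Vps4a, Pdf, Tmed6 and Zfhx3. Of these Sntb2, a syntrophin of the muscle membrane, had the smallest p (log2 fold change -0.28, SE 0.156, unadjusted p = 0.0893 in edgeR), and Tmed6 held 2 counts over all mice. Inside the Wwp2 interval, Rps26-ps1 had a log2 fold change of 0.28 (unadjusted p = 0.284 in edgeR), while Mir140 and Gm45900 were listed at 0 in every mouse. Poly(A)-selected libraries do not measure mature miRNAs.

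Within 0.5 Mb of Wwp2, 17 genes were tested and 0 were called by edgeR, DESeq2 or limma, with 0 at an unadjusted p under 0.05. Their median log2 fold change was -0.02, against -0.01 over chromosome 8 and -0.01 over all genes. Those of them with a mean of at least 1 TPM ran from -0.25 (Nfat5) to 0.51, the latter the pseudogene Rps18-ps3 (SE 0.317, unadjusted p = 0.123 in edgeR), named after its value was seen. Within 5 Mb, 175 genes were tested and 0 were called by any of the 3 tools. At an unadjusted p under 0.05 in edgeR, 8 of the 175 were lower and 0 higher in WWP2 Mut/Mut, which is 4.57% beside 3.66% of all genes. Over all genes the split was 638 lower and 270 higher. Of the 99 genes within 5 Mb with a mean of at least 1 TPM, 1 was at that level in edgeR. That is 1.01%, beside 1.64% of all genes with such a mean. DESeq2 had 5 of the 175 at an unadjusted p under 0.05, beside 612 of all 24804 genes, and limma had 11, beside 1156.

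The 3 genes within 5 Mb with the smallest p on the lower side were Ces3b, Hp and Ces2a. Ces3b and Ces2a are carboxylesterases and Hp is haptoglobin, all of them genes of the liver. Hp ran from 0.78 to 25.6 TPM, with log2 fold change -1.84 (SE 0.546, edgeR unadjusted p = 0.00328, adjusted p = 0.87). Ces3b had a log2 fold change of -2.12 (edgeR adjusted p = 0.86) and Ces2a one of -2.27 (edgeR adjusted p = 0.93), at no more than 1.05 and 0.96 TPM in any mouse. The summed TPM of 6 liver markers (Alb, Apoa1, Apoa2, Ttr, Serpina1a and Fgb) was 1.44 to 283 in WT and 2.79 to 51.6 in WWP2 Mut/Mut, and none of the 6 was at 0 throughout. All 6 had an unadjusted p under 0.05 in edgeR. The 5 mice with the highest liver marker sums were all WT, and the highest, at 283, also held the highest Ces3b and Ces2a. The highest Hp, at 25.6 TPM, was in a WT mouse with a liver marker sum of 85.2. The part of liver RNA in these differences was not tested. On the higher side the smallest p values were those of Dpep2 (log2 fold change 0.56, unadjusted p = 0.0561), Rpl10-ps2 (1.45, unadjusted p = 0.0607) and Gm7208 (2.40, unadjusted p = 0.0897) in edgeR, and the last 2 held at most 6 and 2 counts in a mouse.

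Partner genes of the members were examined as well, at the level of their RNA. The activity of the members was not measured. Of 102 partner genes tested, 0 were called by edgeR, DESeq2 or limma, 0 had an unadjusted p under 0.05 in edgeR and 1 had one in DESeq2 and in limma, beside 3.66% of all genes in edgeR. Their median log2 fold change was -0.02. Of 11 osmotic targets of NFAT5, 7 had a negative log2 fold change, with a median of -0.07. The smallest p among them was that of Ranbp3l, which held at most 1 count in a mouse. Of 17 NRF2 targets listed with Nqo1, 12 were negative with a median of -0.07, beside 51.9% negative over all genes. The smallest p was that of Gclc, of glutathione synthesis, at 2.41 ± 0.67 TPM in WT and 2.05 ± 0.71 TPM in WWP2 Mut/Mut (SD, n = 9 each; log2 fold change -0.26, edgeR unadjusted p = 0.113).

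Among the complexes, the 7 other COG subunits had a median of -0.06, and Cog1 had the smallest p of all partner genes (log2 fold change -0.18, SE 0.0862, edgeR unadjusted p = 0.0517). The 14 other ribosome assembly factors had a median of -0.03, with Tsr1 at -0.15 (edgeR unadjusted p = 0.116). The 6 other shelterin genes had a median of -0.02, with Pot1a at -0.11 (edgeR unadjusted p = 0.353), and the 10 other exosome genes one of 0.03, with Exosc10 at -0.09 (edgeR unadjusted p = 0.30). The 11 other genes of pyruvate dehydrogenase control had a median of -0.04. Pdk4, the kinase that switches the enzyme off in fasting, had the smallest p there, at 100.2 ± 54.5 TPM in WT and 76.0 ± 56.1 TPM in WWP2 Mut/Mut (SD, n = 9 each; log2 fold change -0.54, edgeR unadjusted p = 0.218). The 7 cytochrome b5 partners had a median of 0.03, with Marc1 at -1.43 and at most 37 counts in a mouse (edgeR unadjusted p = 0.0756). The 19 other cytosolic aminoacyl-tRNA synthetases had a median of -0.01, and the smallest p was that of Kars, itself 4.43 Mb from Wwp2 (0.09, edgeR unadjusted p = 0.314). Negative log2 fold changes numbered 6 of 7 for COG, 9 of 14 for ribosome assembly and 3 of 6 for shelterin. They numbered 2 of 10 for the exosome and 8 of 11 for pyruvate dehydrogenase. For cytochrome b5 and the synthetases they numbered 2 of 7 and 12 of 19. The NFAT5 and NRF2 targets had 7 of 11 and 12 of 17. Over all genes 51.9% were negative, and the counts of the lists were not tested.

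The genes most like a member across the 18 mice were sought with log2 CPM centred within genotype, among 11336 genes. For Nfat5 they were Kmt2d (r = 0.97), Hmbox1 (r = 0.94) and Hnrnph1 (r = 0.93). For Nqo1 they were Retreg1 (r = 0.91), Hbp1 (r = 0.90) and Mipep (r = 0.90). For Nob1 they were Shb (r = 0.83), Jund (r = 0.74) and Abhd8 (r = 0.73). For Pdpr, added after its values were seen, they were Pm20d2, Slc8a1 and Nt5c1a (r = 0.99 for each). These are the highest of many correlations, all over the same 18 libraries. Jund and Abhd8 lie on chromosome 8 as well, and the other 10 do not. Of the 11335 genes other than Wwp2 with a mean of at least 1 TPM, 630 lie on chromosome 8. A link by chromosome was not tested.

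The direction of several members depended on the setting. Nfat5, Nob1 and Aars kept a negative log2 fold change under all 11 other settings and with each of the 18 mice left out. Cyb5b, Terf2, Cog8, Nip7, Nqo1 and Pdpr changed sign under at least 1 of them, and none of the 9 was called under any.

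**Figure D4:**
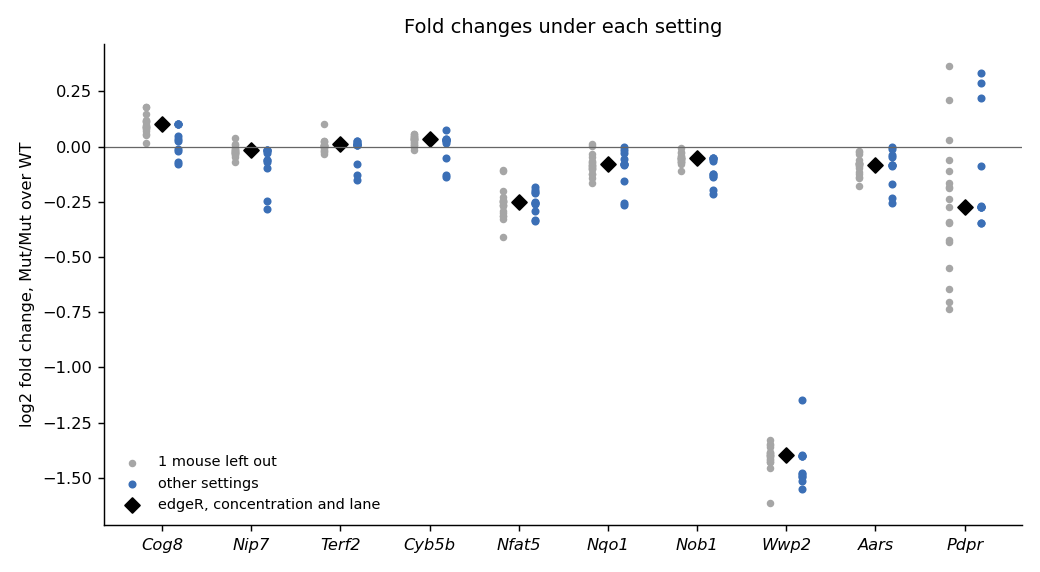
Log2 fold change (WWP2 Mut/Mut over WT) of Wwp2 and the 9 tested flanking genes in edgeR with RNA concentration and lane (black), under 11 other settings (blue) and with each of 18 mice left out (grey). Wwp2 stays between -1.61 and -1.15, and Pdpr spans -0.74 to 0.37.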

How the data were processed

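RNA from the left ventricle of 18 AngII-infused mice was sequenced as stranded poly(A) libraries. Per the study's methods and the submitters' processing notes, the authors aligned reads to mouse m38 (Ensembl 89) with STAR 2.5.2b, quantified genes with RSEM 1.2.31 and removed rRNA and mitochondrial genes. The authors deposited the expected count of each gene (5.11% of values not whole, rounded here) and TPM, whose sums were 671770 to 826381. They also deposited, per library, lane, RNA concentration and a gene body coverage fraction. The listed concentration of WT mouse 43-3 was 1.68 ng/ul, against 88.6 to 320.9 in the others, and was used as listed.

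Mice were grouped by labelled genotype. Counts of the 24804 genes with more than 1 count were tested with edgeR 4.0.16 (TMM, glmQLFit, glmQLFTest, R 4.3.3) with centred concentration and lane as covariates and Benjamini-Hochberg adjustment over all genes. The script was tested on simulated data. Alternatives were DESeq2 1.42.0, limma 3.58.1 on log2(TPM + 1) and log2(TPM + 0.1), other size factors, filters and covariates, and leaving out each mouse. Exact permutation tests used all 48620 divisions of the mice (Python 3.11.15, scipy 1.17.1). Positions are from GENCODE M21 (GRCm38), with which 51242 of the 51435 gene IDs were matched. Promoter windows are from RefSeq (GRCm38.p6).

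The members and lists were chosen with earlier results of these data known. Genes named in the text were Wwp2, the members, other protein-coding genes within 0.5 Mb that passed the filter, genes inside Wwp2, the 3 with the smallest p in each direction within 5 Mb, the gene with the smallest p in each partner list, and the 3 most correlated with Nfat5, Nqo1 and Nob1. Rps18-ps3 and the 3 genes most correlated with Pdpr were added after their values were seen, and the liver markers come from the marker lists. Mice with the same genotype are separate animals.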

Additional observations from a re-analysis of the deposited data

Results flagged for a closer look

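Among 34 groups of 9 mice (Wwp2, the 9 tested members and the tested neighbours, in each genotype), 2 held a mouse whose TPM stood apart from the other 8 by more than 0.49 of the group's range (Dixon's 95% critical value), and chance alone flags about 1 in 20 groups. Wwp2 was at 3.00 TPM in WWP2 Mut/Mut mouse 52-1, while the other 8 of that genotype lay between 1.19 and 1.90 TPM. It was still below the lowest WT mouse. Mouse 52-1 also had the highest gene body coverage of its genotype, 0.0526. On log2 CPM, Wwp2 and coverage gave Pearson r = 0.85 within WWP2 Mut/Mut and 0.50 within WT (n = 9 each), but 0.13 over the 18 mice. In the edgeR model with coverage, Wwp2 rose by 0.19 per SD of coverage (SE 0.0655, adjusted p = 0.0349). The part of coverage in the value of mouse 52-1 was not tested. Terf2 was at 6.34 TPM in WT mouse 45-1, while the other 8 WT mice lay between 2.48 and 4.10 TPM. That WT mouse also held the highest liver marker sum. These values are given with no explanation.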

How the results depend on the processing

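No member was called under any of 11 other settings or with any of the 18 mice left out, and Wwp2 was called under all of them, at -1.61 to -1.33 with a mouse left out. The number of all genes called was 1, but 4 in DESeq2 and 1 to 2 with a mouse left out (2 when mouse 1-2 of WWP2 Mut/Mut or mouse 84-2 of WT was the one left out). The median log2 fold change of the members moved from -0.05 to -0.21 in limma on log2(TPM + 1) and -0.25 on log2(TPM + 0.1). The median of all genes was -0.04 and -0.11 there, but it includes genes under 1 TPM. All 9 tested members had a mean of at least 1 TPM. Over the 11336 genes of that level, the median log2 ratio of mean TPM was -0.14. The cause of the move was not tested.

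Signs turned as follows. With library totals alone, Cyb5b was -0.050 and Terf2 -0.077. In limma on log2(TPM + 1), Cyb5b was -0.13, Terf2 -0.13 and Cog8 -0.069, and on log2(TPM + 0.1) they were -0.14, -0.15 and -0.077. With lane alone, Pdpr was 0.29. With gene body coverage added, Pdpr was 0.34 and Cog8 -0.019, and with coverage as the only covariate, chosen after seeing the data, 0.22 and -0.012. With a mouse left out, log2 fold changes were -0.17 to 0.012 for Nqo1, -0.016 to 0.058 for Cyb5b, -0.74 to 0.37 for Pdpr, -0.032 to 0.10 for Terf2 and -0.070 to 0.040 for Nip7. The cause of these turns was not tested.

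In TPM, lane 1 alone gave Nob1 a difference of 0.75. Leaving out a mouse, added after seeing the data, gave Nob1 -2.59 to -1.65 with exact permutation p from 4.52e-04 to 0.0344, Pdpr -2.13 to 0.29, and Cog8 an exact permutation p as low as 0.0374. On TMM-normalized log2 CPM, also added, differences turned to 0.014 for Cyb5b, 0.054 for Pdpr, 0.034 for Terf2 and 0.027 for Cog8. Rank correlations with coverage on log2(TPM + 0.1), also added, turned to -0.17 for Wwp2, -0.23 for Nfat5, -0.66 for Nob1, -0.65 for Terf2 and -0.83 for Nip7, and that of Cog8 moved from 0.90 to 0.24 (permutation p = 0.34).

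Isoforms of Wwp2, mature miRNAs and Exosc6 were not measured, and the standard error of Pdpr was 0.825. No paired analysis was possible because no mouse label occurs in both genotypes. Labels do share an ending after the hyphen, whose meaning is not given in the sources used here and which several mice of a genotype carry, and it was not used as a block.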
